A study of Danio rerio with 2 samples.

Results

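Apolipoprotein transcripts of the yolk layer were examined in RNA that came down with Flag-tagged Cpeb1b, an RNA-binding protein of the cytoplasmic polyadenylation element-binding family. The genes were taken by name, as apoa1a, apoa1b, apoa2, apoc1, apoeb, apoea, apobb.1, apoba and apoa4b.1. Of these 9 genes, 7 had a row among the 33737 rows of the table, with 1 row each. The row for apoba is the one named APOB, which lacks the paralogue letter, while apobb.1 and apobb.2 have rows of their own. No row was matched to apoa1b or apoea, and these were not analysed here.

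The embryos were wild-type zebrafish injected with Flag-cpeb1b mRNA and collected at 16 hours post-fertilization (hpf). Magnetic beads carrying an anti-FLAG antibody were used to pull the protein from their lysate, and the RNA retained through the washes was fragmented and sequenced (RNA immunoprecipitation sequencing, RIP-seq). The series holds 2 replicates of this 1 group, and the authors deposited 1 mean RPKM per gene, a read count divided by the length of the gene model and by the depth of the library. No input, control antibody or uninjected sample was analysed here, and the injected mRNA was present in all embryos, so the values are levels on the beads and do not measure enrichment. With only the mean given, no replicate spread and no test between replicates could be computed.

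Apolipoproteins are the protein components of lipoprotein particles, which carry triglyceride, phospholipid and cholesterol through body fluids. ApoB is the large, non-exchangeable scaffold of the triglyceride-rich particles, whereas the A, C and E classes are small exchangeable proteins that coat particles and direct their handling by enzymes and receptors. In the zebrafish embryo the yolk syncytial layer, a multinucleate layer between yolk and blastoderm, packs yolk lipid into such particles before liver and gut function. The table is of whole embryos, so the layer was not separated from other tissue, and the number of expressing nuclei, the RNA per nucleus and the recovery on the beads cannot be told apart.

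All 7 genes with a row were above the threshold for detection, RPKM 1, which 38.6% of all rows reached. All 7 also reached RPKM 10, which 6.82% of all rows reached. The APOB row, at 10.0026 RPKM, lay so near this level that counting error could place it on either side. Its 95% counting interval for a gene model of 1 kb was 8.34 to 11.8 RPKM. The genes apoc1, apoa1a and apoeb, 3 of the 7, reached RPKM 100, a level that 0.797% of all rows reached. The median of the 7 genes was 88.5 RPKM, against 3.22 RPKM for the 9786 detected gene names. The lowest was 10.0026 RPKM and the highest 277.6 RPKM, a range of 27.8-fold over the 7 genes.

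**Figure D1:**
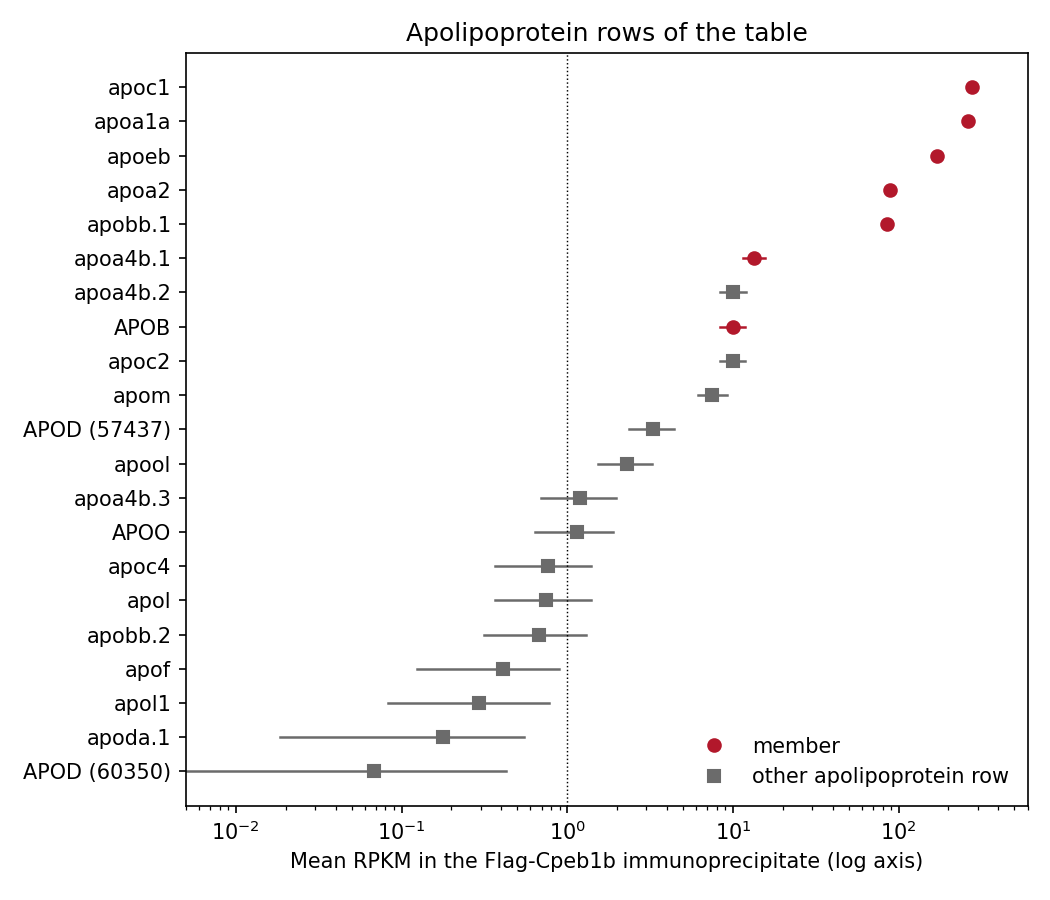
Mean RPKM of every apolipoprotein row on a log axis, with the named genes as red circles and the other apolipoprotein rows as grey squares. Bars are 95% counting intervals for a gene model of 1 kb and the dotted line is RPKM 1. The 5 highest rows, apoc1 to apobb.1, lie between 84.8 and 277.6 RPKM, and the next row, apoa4b.1, is at 13.4 RPKM.

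The depth behind these values was read from low values shared by several rows, in which the step of a single read can be seen. By that estimate a gene model of 1 kb at RPKM 1 holds about 13.1 reads from both libraries together. Counting intervals below are exact 95% Poisson or binomial intervals for a gene model of 1 kb. They cover counting error only, since no molecular identifiers were counted, reads can be copies of 1 molecule, and the spread between replicates is not known. The true lengths of the gene models were not used here, and both genes of a ratio were given the same length. A shorter model would have wider intervals, and a longer model, as for the large apoB proteins, narrower intervals. Whether a pair can be ordered is stated for these assumed lengths only.

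Among the genes of high-density lipoprotein, apoa1a stood high. It encodes apolipoprotein A-I, the main protein of that particle and the activator of the cholesterol-esterifying enzyme LCAT. The row (ENSDARG00000012076) had 263.1 RPKM, with a counting interval of 254.4 to 272.02 RPKM, and stood at rank 104 of all rows. Among the 16385 rows matched to a protein-coding RefSeq gene its rank was 38. The gene apoa2, which encodes the other abundant protein of this particle (ENSDARG00000015866), had 88.5 RPKM, with an interval of 83.5 to 93.8 RPKM, at rank 300 of all rows. The apoa1a level was 2.97 times that of apoa2 (2.78 to 3.18).

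The small exchangeable gene apoc1 was the highest apolipoprotein row. Apolipoprotein C-I is known in mammals to slow the uptake of lipoproteins by their receptors. Its row (ENSDARG00000092170) had 277.6 RPKM, with an interval of 268.7 to 286.8 RPKM, at rank 99 of all rows and rank 35 of the protein-coding set. The levels of apoc1 and apoa1a differed by a ratio of 1.06, with an interval of 1.01 to 1.11 for models of 1 kb and of 0.987 to 1.127 for models of 0.5 kb. At the shorter length, this pair could not be ordered beyond counting error. The gene apoeb encodes apolipoprotein E, a ligand of receptors of the LDL receptor family. Its row (ENSDARG00000040295) had 169.7 RPKM, with an interval of 162.7 to 176.9 RPKM, at rank 160, and lay below apoc1 and apoa1a and above apoa2. The apoc1 level was 1.64 times that of apoeb (1.55 to 1.73).

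The apoB genes among the named genes, apobb.1 and the APOB row, differed from each other by almost an order of magnitude. The row of apobb.1 (ENSDARG00000022767) had 84.8 RPKM, with an interval of 79.9 to 89.9 RPKM, at rank 308. The row named APOB (ENSDARG00000042780) had 10.0026 RPKM, with an interval of 8.34 to 11.8 RPKM, at rank 2302. The ratio of apobb.1 to APOB was 8.48 (7.08 to 10.3). A further copy outside the named genes, apobb.2 (ENSDARG00000075016), had 0.679 RPKM and lay under the detection threshold, so apobb.1 stood 125.0 times higher (64.9 to 271). The level of apobb.1 and that of apoa2 could not be ordered, with apoa2 over apobb.1 at 1.04 (0.961 to 1.13).

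The gene apoa4b.1 was among the lower members. It encodes an apolipoprotein A-IV, a class known in mammals from the chylomicrons that the gut secretes. The row (ENSDARG00000040298) had 13.4 RPKM, with an interval of 11.5 to 15.5 RPKM, at rank 1736, where 94.9% of all rows lay below it. Its ratio to the APOB row was 1.34, with an interval of 1.07 to 1.70 for models of 1 kb and of 0.958 to 1.86 for models of 0.5 kb. The related copies apoa4b.2 and apoa4b.3 had 10.1 and 1.19 RPKM. The ratio of apoa4b.1 to apoa4b.2 was 1.33, with an interval of 1.06 to 1.68 for models of 1 kb and of 0.958 to 1.86 for models of 0.5 kb. At the shorter length, apoa4b.1 could be ordered against neither APOB nor apoa4b.2. The apoa4b.1 level was 11.3 times that of apoa4b.3 (6.59 to 19.7). How reads that match several of these copies were counted is not given in the sources used here.

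**Figure D2:**
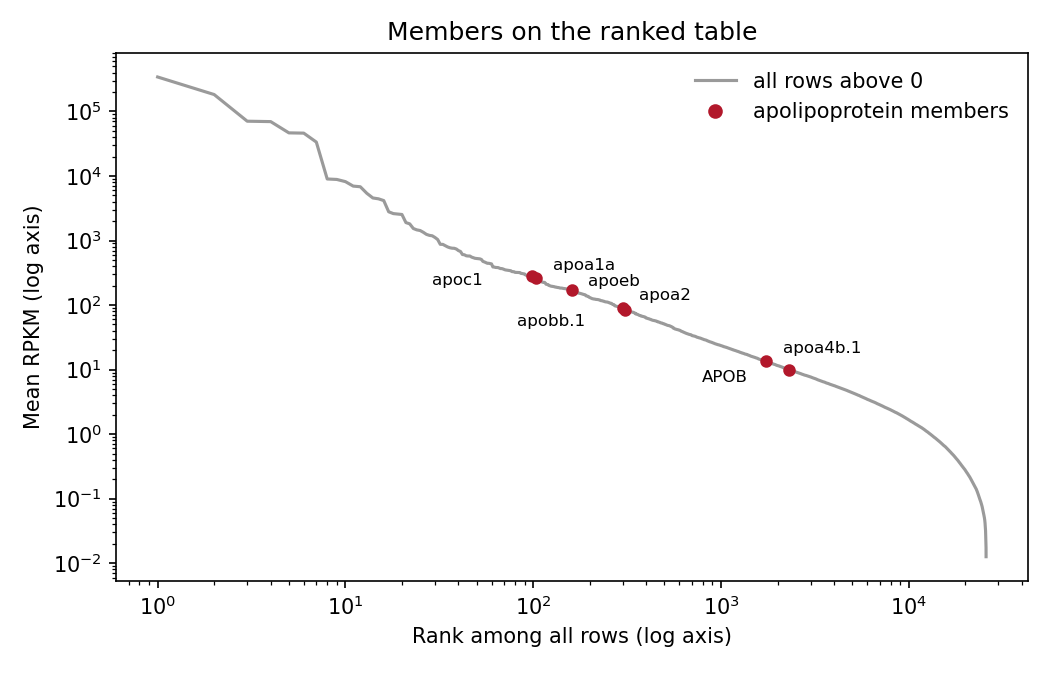
Mean RPKM of all rows above 0 against their rank, both on log axes, with the 7 apolipoprotein genes in red. The upper 5 lie at ranks 99 to 308, while apoa4b.1 and APOB lie at ranks 1736 and 2302.

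The 7 genes thus fell into an upper set of 5 and a lower set of apoa4b.1 and APOB, with apobb.1 at 6.32 times the level of apoa4b.1 (5.39 to 7.46) across the gap. The upper set lay above 99.1% to 99.7% of all rows, and APOB lay above 93.2% of them. Together apoc1, apoa1a and apoeb held 78.3% of the 907.1 RPKM summed over the 7 genes. That sum was 0.0885% of the RPKM total of the table, in which a few very high rows weigh most. Of the RPKM summed over the rows matched to a protein-coding RefSeq gene, it was 0.916%.

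The genes apoa4b.1, apoeb, apoc1 and apoa2 lie near each other in the genome. In the gene order of RefSeq (assembly GRCz12tu, used only for names and neighbours because the authors' build is Zv9), 10 protein-coding genes run from apoa4b.1 to apoc2, and 8 of them are apolipoprotein genes. Along this order the values were 13.4 RPKM for apoa4b.1, 1.19 RPKM for apoa4b.3, 10.1 RPKM for apoa4b.2 and 169.7 RPKM for apoeb. They continued with 277.6 RPKM for apoc1, 0.763 RPKM for apoc4, 88.5 RPKM for apoa2 and 9.98 RPKM for apoc2. Between the apoa4b genes, si:dkey-7f3.14 was listed at 0 and LOC100005908 had no row. Low genes stood next to high ones, and apoc4, between the high genes apoc1 and apoa2, was the only one of the 8 under RPKM 1. The highest and lowest of the 8 differed 364-fold, from apoc1 over apoc4 (198 to 761). The genes apoeb, apoc1 and apoa2 held 93.8% of the RPKM summed over the 8.

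**Figure D3:**
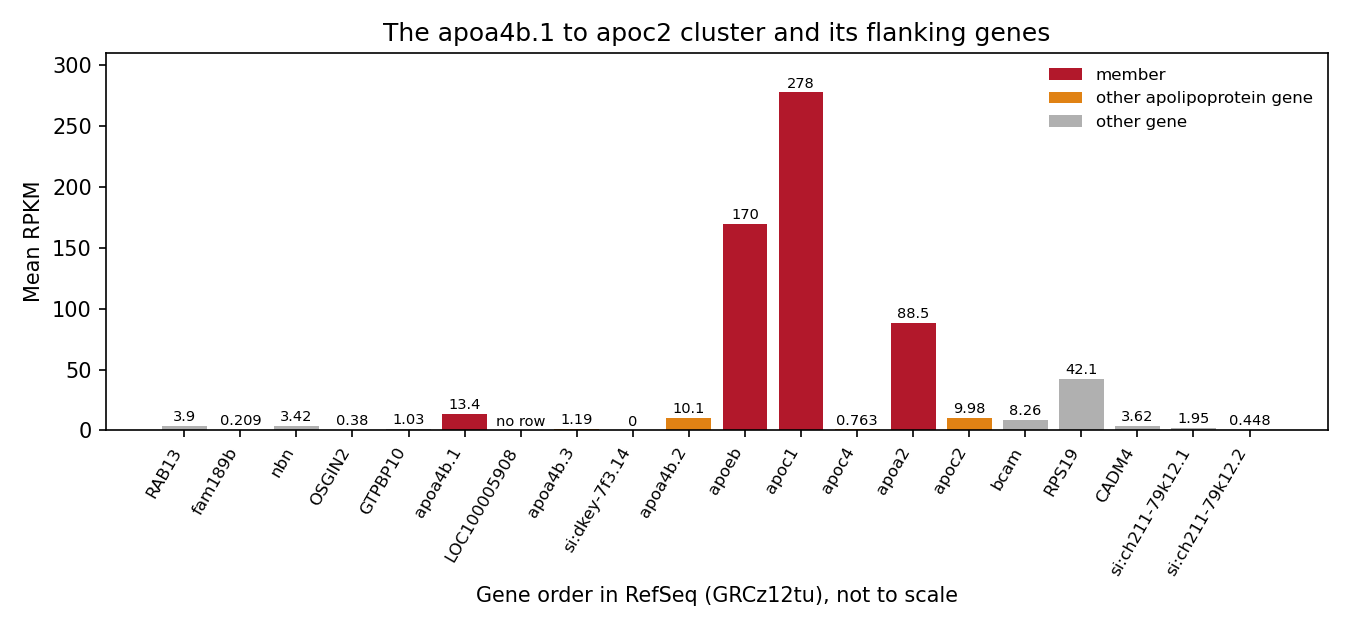
Mean RPKM of the genes from apoa4b.1 to apoc2 and of 5 flanking genes with a row on each side, in RefSeq gene order and not to scale, with bars starting at 0. The tall bars are apoeb at 169.7, apoc1 at 277.6 and apoa2 at 88.5 RPKM, while apoc4 between them is at 0.763 RPKM.

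The flanking genes with a row all lay below the upper set of 5 apolipoprotein genes. Of the 10 protein-coding genes with a row that flank the cluster, 5 on each side, 7 reached RPKM 1, beside 38.6% of all rows. Of the same 10 genes, 1 reached RPKM 10, beside 6.82% of all rows. That gene was RPS19, a cytosolic ribosomal protein gene, at 42.1 RPKM, above the apoa4b genes, apoc4 and apoc2. The median of the 10 was 2.68 RPKM, beside 1.19 RPKM for all rows matched to a protein-coding RefSeq gene. More of those protein-coding rows than not therefore reached RPKM 1. The share of all rows is thus a low background for the flanking genes, here and below. Around apoa1a 2 of the 10 flanking genes reached RPKM 1, and the median of the 10 was 0.303 RPKM. The highest was rnf214, the nearest gene with a row on its side, at 13.2 RPKM. The apoa1a level was 20.0 times that of rnf214 (17.1 to 23.4). Around apobb.1 6 of the 10 flanking genes reached RPKM 1, and they ranged up to 7.67 RPKM, with a median of 1.12 RPKM. Around apoba 4 of the 10 reached RPKM 1, and the flanking genes ranged up to 5.56 RPKM, with a median of 0.527 RPKM.

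With 1 value per gene, likeness to other genes could be taken only as nearness in level. The named rows next to apoc1 were ADAMTS17 at 281.1 RPKM and afp4, a type IV antifreeze protein gene, at 275.8 RPKM. Those next to apoa1a were NUCKS1 at 269.5 RPKM and CSRNP2 at 243.7 RPKM. Next to apoeb stood cep135 at 172.7 RPKM and mt-atp8, a mitochondrially encoded subunit of the ATP synthase, at 166.2 RPKM. The row nearest to apoa2 was CALM2, a calmodulin gene, at 88.4 RPKM, and the nearest to apobb.1 was dynll1, a dynein light chain gene, at 84.5 RPKM. For the lower pair, the row nearest to apoa4b.1 was PSMD13 at 13.4223 RPKM, followed by UQCRC2, a respiratory chain gene, at 13.4313 RPKM. The nearest to APOB was RXRB, a nuclear receptor gene, at 10.0067 RPKM.

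Other apolipoprotein genes stood near the middle of the table. It had 14 further rows with an apolipoprotein name, of which 7 reached RPKM 1, beside 38.6% of all rows. Their median was 0.954 RPKM, as was that of all gene names. The named genes held 95.9% of the RPKM summed over all 21 rows. The highest of the others were apoa4b.2 at 10.1 RPKM and apoc2, the cofactor of lipoprotein lipase, at 9.98 RPKM. The APOB row and apoc2 could not be ordered, at a ratio of 1.00197 (0.779 to 1.28). The gene apom, whose protein carries sphingosine-1-phosphate on high-density lipoprotein, had 7.53 RPKM. The 2 rows named APOD had 3.31 and 0.0687 RPKM. APOO at 1.14 RPKM and apool at 2.29 RPKM bear the name but encode proteins of the mitochondrial inner membrane. Under RPKM 1 were apoc4, apol at 0.740 RPKM, apobb.2, apof at 0.408 RPKM, apol1 at 0.293 RPKM, apoda.1 at 0.178 RPKM and the lower APOD row. CLU, the gene of apolipoprotein J, had 0.351 RPKM.

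The machinery that loads and exports apoB particles was present at lower levels than apobb.1. Of its 28 measured genes, 5 lay above the APOB row, which itself lay above 93.2% of all rows. In the list for lipoprotein assembly and secretion 21 of 28 measured genes (75%) were detected, beside 38.6% of all rows and 9786 of 19976 gene names. The median of all 28 was 3.27 RPKM. The list's highest gene was FABP2, an intracellular fatty acid-binding protein, at 54.9 RPKM, between the levels of apobb.1 and apoa4b.1. PLA2G12B, needed in zebrafish for the secretion of triglyceride-rich lipoproteins, had 22.4 RPKM. SURF4, a cargo receptor for lipoproteins in the endoplasmic reticulum, had 13.3 RPKM, and cideb, a protein of lipid droplets and lipoprotein lipidation, 11.4 RPKM. MTTP, the transfer protein that lipidates apoB, had 9.52 RPKM, so apobb.1 stood 8.91 times higher (7.40 to 10.8). This MTTP level lay within the counting interval of the APOB row for a model of 1 kb, 8.34 to 11.8 RPKM. A longer APOB model would narrow that interval, and no ratio of APOB to MTTP was computed. The acyltransferase DGAT2 had 4.30 RPKM and DGAT1 0.569 RPKM.

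Receptors that take up lipoproteins, with their partners, had a median between that of all rows and that of all gene names. Of the list, 5 of 17 measured genes (29.4%) were detected, beside 38.6% of all rows and 9786 of 19976 gene names. The median of the 17 was 0.693 RPKM, beside 0.507 RPKM for all rows and 0.954 RPKM for all gene names, and the highest was at 8.40 RPKM. The highest were the receptor chaperone LRPAP1 at 8.40 RPKM, the sorting receptor SORT1 at 4.21 RPKM, the Wnt co-receptor LRP5 at 4.004 RPKM and the adaptor ldlrap1a at 2.30 RPKM. The LDL receptor genes ldlra and ldlrb had 0.166 and 0.796 RPKM, and VLDLR had 0.878 RPKM. These 3 values were under the detection threshold. Lrp1ba was listed at 0, while the higher of the 2 rows named LRP1B had 0.662 RPKM.

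Enzymes and transporters that remodel particles were mixed. The list had 11 of 20 measured genes (55%) detected, beside 38.6% of all rows and 9786 of 19976 gene names. The median of all 20 was 1.95 RPKM. NPC2, a cholesterol-binding protein of the lysosome, had 115.3 RPKM in one row, above the median of the apolipoprotein genes, and a second row of that name was listed at 0. The cholesterol exporter gene abca1b had 10.6 RPKM, NPC1 4.44 RPKM and pon1, a lipoprotein-bound esterase, 4.34 RPKM. Lipoprotein lipase (LPL) had 3.48 RPKM, so apoc1 stood 79.7 times higher (59.3 to 108).

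Cholesterol synthesis genes stood near the middle of the table. For synthesis and its control 9 of 17 measured genes (52.9%) were detected, beside 38.6% of all rows and 9786 of 19976 gene names. The median of all 17 was 1.06 RPKM, beside 0.954 RPKM for all gene names. The regulator srebf2 had 10.9 RPKM, the isomerase IDI1 5.30 RPKM, FDPS 3.86 RPKM and insig1 3.65 RPKM.

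**Figure D4:**
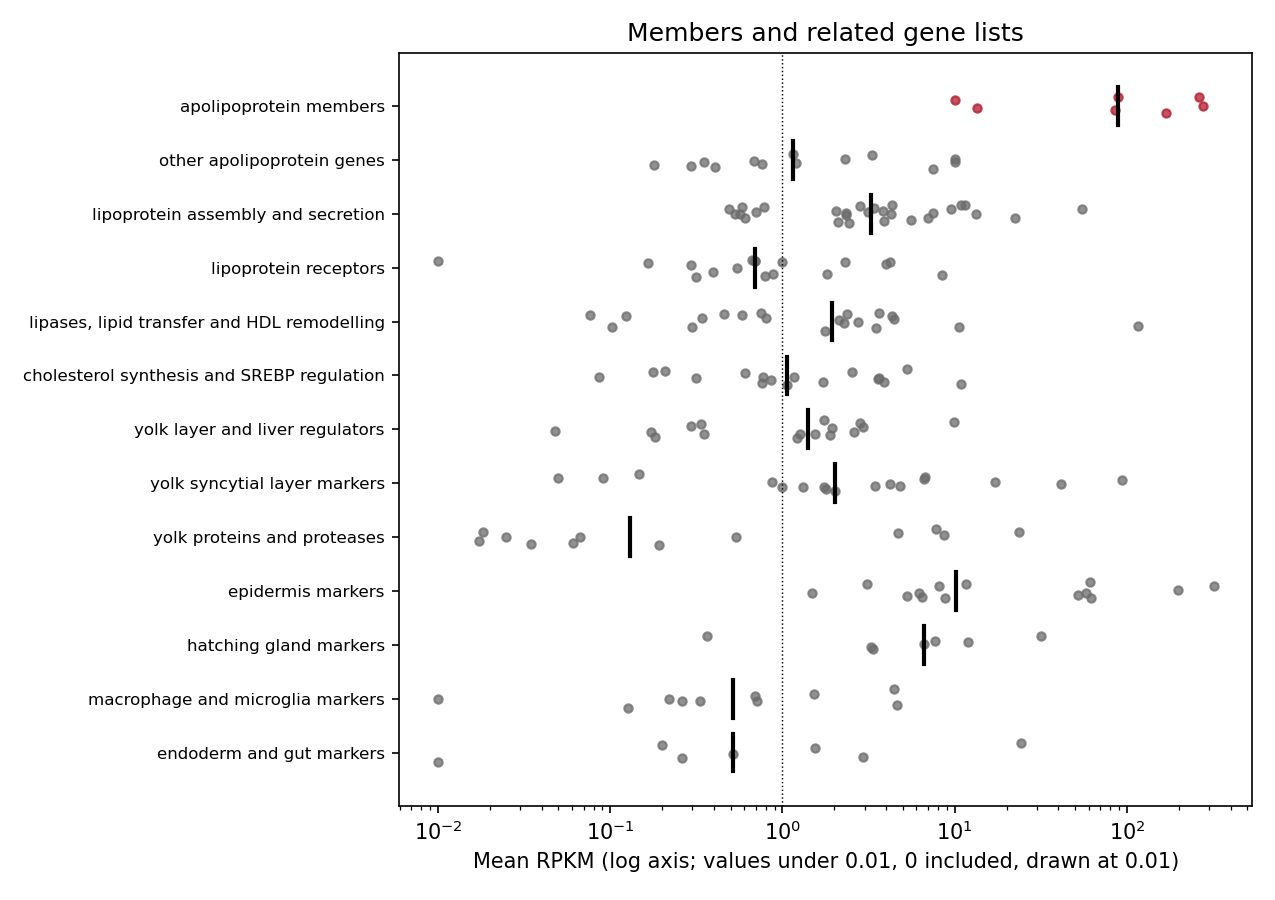
Mean RPKM of the 7 apolipoprotein genes, in red, and of the genes of 12 related lists, in grey, on a log axis, with a black line at each list's median and a dotted line at RPKM 1. Values under 0.01, including 0, are drawn at 0.01. The median of the apolipoprotein genes is 88.5 RPKM, and the highest list median is 10.2 RPKM, for epidermis markers.

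Other genes known from the yolk layer were read beside the apolipoprotein genes, with the lists drawn from general knowledge. Of 17 measured yolk layer markers 12 (70.6%) were detected, beside 38.6% of all rows and 9786 of 19976 gene names. The median of all 17 was 2.02 RPKM, beside 0.954 RPKM for all gene names. The transferrin gene tfa had 93.5 RPKM, and apoa2 could not be ordered against it, at a ratio of 0.947 (0.873 to 1.03). The cathepsin gene ctsla had 41.7 RPKM, the monocarboxylate transporter SLC16A1 17.1 RPKM and the protease inhibitor serpina1l 6.73 RPKM. Among genes of plasma proteins that the later liver makes, the fibrinogen gene FGB had 4.82 RPKM, serpina1 4.23 RPKM and ahsg2 3.43 RPKM. Below them were ambp at 2.02 RPKM, CPN1 at 1.32 RPKM and FGG at 0.994 RPKM. The lowest were GC at 0.147 RPKM, TTR at 0.0905 RPKM and ahsg1 at 0.04998 RPKM. Of the markers, 1 of 17 lay above the median of the apolipoprotein genes, the level of apoa2, which lay above 99.1% of all rows.

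Regulators of the yolk layer and liver had a lower median than the apolipoprotein genes. The list had 10 of 16 measured genes (62.5%) detected, beside 38.6% of all rows and 9786 of 19976 gene names. The median of all 16 was 1.40 RPKM. GATA5 had 9.93 RPKM, within the counting interval of the APOB row for a model of 1 kb, and foxa3 had 2.92 RPKM. The yolk layer homeobox gene mxtx1 had 1.88 RPKM and its relative mxtx2 0.172 RPKM. HNF4A, a nuclear receptor that activates apolipoprotein genes in mammals, had 1.74 RPKM.

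Transcripts of yolk proteins were near 0. All 7 vitellogenin genes, which encode the yolk precursor made in the mother's liver, lay between 0.0172 and 0.192 RPKM. Lysosomal proteases, a class that digests yolk but is present in most cells, stood higher. The cathepsin genes CTSB, CTSD and CTSH had 23.6, 8.63 and 7.75 RPKM, and LGMN had 4.71 RPKM. Of the 12 measured genes of this list 4 (33.3%) were detected, beside 38.6% of all rows and 9786 of 19976 gene names.

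Markers of other cell types that express apolipoproteins, or that lie at the surface of the embryo, were read in the same way. Their counts stand beside 38.6% of all rows and 9786 of 19976 gene names detected. Only markers with a row were counted, from lists of 11 macrophage, 13 endoderm, 16 epidermis and 7 hatching gland entries. In the endoderm list, sox17 and sox32 were among the entries not matched to a row. Of 10 macrophage and microglia markers 3 were detected, namely SPI1 at 4.63 RPKM, CORO1A at 4.41 RPKM and SLC7A7 at 1.53 RPKM. The next, LCP1, had 0.707 RPKM. The defining genes MPEG1 and csf1rb had 0.260 and 0.219 RPKM, and marco was listed at 0. Of 7 endoderm and gut markers 3 were detected, namely cdx4, also a gene of the posterior mesoderm, at 24.4 RPKM, foxa3 at 2.92 RPKM and FOXA2 at 1.55 RPKM. The next, ela2, had 0.514 RPKM. Both foxa3 and FOXA2 were also counted among the yolk layer and liver regulators. The enterocyte gene VIL1 had 0.198 RPKM, and prss59.1 was listed at 0. All 14 epidermis markers with a row were detected, with a median of 10.2 RPKM. Their highest, krt4, krt5, krt8 and krt18a.1, had 319.4, 197.7, 61.5 and 61.5 RPKM, and apoc1 stood at 0.869 times krt4 (0.831 to 0.909). Of 7 hatching gland markers 6 were detected, led by XBP1 at 31.7 RPKM, he1.1 at 12.0 RPKM, he1.2 at 7.69 RPKM and ctslb at 6.60 RPKM. The gene ctslb was also counted among the yolk layer markers. The undetected marker, he1.3, had 0.366 RPKM. How specific each marker is at 16 hpf was not tested. A low value does not show that a tissue was absent, since its marker may be inactive at this age. The part of each tissue in the apolipoprotein values was not tested.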

How the data were processed

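RNA bound to Flag-Cpeb1b was sequenced from 2 samples of 1 group. The authors deposited RPKM values, 1 per gene and averaged over the replicates per the file name. The submitters' processing notes list the Zv9 build with TopHat2 2.1.1 and Bowtie (aligners), cutadapt 1.13 and Trimmomatic 0.36 (trimmers), bedtools 2.16.2, MACS2 2.0.10 and FastQC. The order of these tools, the gene models and their lengths were not given in the sources used here, nor was the use of strand. Zv9 positions and sequences were not used.

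Rows were named through a table of Ensembl gene names, which gave a name to 65.0% of rows. A name without its paralogue letter or number was used where the full name had no row, and each name was represented by its highest row. Listed genes with no row by either name were left out of the list counts. The lists for assembly, receptors and regulators had 38, 25 and 27 entries, against 28, 17 and 16 names with a row. Named genes were all members with each of their rows, other apolipoprotein genes, the 4 highest genes of each list, known partners, neighbours in gene order and the nearest rows in level. Some genes that this rule names are not reported here. The members and lists were chosen with earlier results of these data known. Pairs for ratios and further low or telling genes of each list were picked after their values were seen.

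Depth was estimated from values of 0.4 to 2 RPKM shared by at least 3 rows. Steps of 76.3 and 76.0 RPKM × nt per read gave whole lengths, within a tolerance of 0.002 that widens in proportion above 100 nt, for 135 of 171 such rows. Should the authors have taken a plain mean of 2 libraries, the denominators would be 6551360 and 6576770 reads. The search was tested on simulated data, with 2 libraries whose steps lay further apart than these. Whether it separates steps as close as these was not tested. Alternatives changed the detection threshold, the rows in each total, the rows kept and the pseudocount. Calculations used Python 3.11.15, NumPy 2.4.6, pandas 2.3.3 and SciPy 1.17.1.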

Additional observations from a re-analysis of the deposited data

How the results depend on the processing

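The number of detected apolipoprotein genes was 7 with a threshold of RPKM 0.1 or 5 and with every row kept. These settings could not change it, since the lowest gene had 10.0026 RPKM and each gene had 1 row. For the same reason their median of 88.5 RPKM was fixed with every row kept and over detected genes alone. The median was 86.6 RPKM without the highest gene. Without the APOB row, an alternative chosen after seeing the data, it was 129 RPKM. Their share of summed RPKM was 0.0885% of all rows, 0.438% without the 10 highest rows, 0.259% of rows with a name, 0.916% of rows matched to a protein-coding gene and, chosen after seeing the data, 0.389% of rows under RPKM 10000. The ratio of apobb.1 to APOB was 7.80 with a pseudocount of 1 RPKM and 8.40 with 0.1 RPKM. Across the other sets of rows the share below a gene was at lowest 82.3%, for APOB among rows at RPKM 1 or more.

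Counts of detected genes in the related lists changed with the threshold. The share of all rows at RPKM 0.1 or 5 was not computed, so the counts there have no background. At RPKM 0.1, 1 and 5 they were 14, 14 and 12 for epidermis markers and 7, 6 and 4 for hatching gland markers. For yolk proteins and proteases they were 6, 4 and 3. From RPKM 1 to 0.1, assembly genes went from 21 to 28. Yolk layer regulators went from 10 to 15 and yolk layer markers from 12 to 15. The counts that changed most in proportion are given next. At RPKM 0.1 they were 13 other apolipoprotein genes, 16 receptors, 19 lipases and remodelling genes, 16 cholesterol genes, 9 macrophage markers and 6 endoderm markers, against 7, 5, 11, 9, 3 and 3 at RPKM 1. At RPKM 5 they were 3 other apolipoprotein genes, 9 assembly genes, 1 receptor, 2 lipases and remodelling genes, 2 cholesterol genes, 1 yolk layer regulator, 5 yolk layer markers, 0 macrophage markers and 1 endoderm marker.

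No paired analysis was possible because the table holds only the mean of 1 group, and none without a replicate for the same reason. The alternatives by coding length were not run, because no coding lengths were used here, nor were the ratios of apoa1a to apoa1b and of apoeb to apoea. Depth limits genes near RPKM 1, where a model of 1 kb has about 13.1 reads and a counting error of 27.6%, against 8.73% at RPKM 10.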
